A study of Mus musculus with 10 samples.

Results

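The genes described here encode the semaphorins of classes 3 to 7, their neuropilin and plexin receptors, the slits with their robo receptors, and the netrins with Dcc and the Unc5 receptors. Every array probe whose only gene symbol fitted these names was taken, whatever its values. That gave 47 probes for 41 genes among the 21766 probes of the array, and 28 of the 47 probes, for 24 genes, had enough measurements to be tested, among 11855 tested probes in all, which named 9214 genes. By name, 49 protein-coding genes of RefSeq fit the same rule, and the 8 others (Ntn5, Plxna4, Plxnb1, Robo3, Sema3g, Sema4f, Unc5a and Unc5d) were not analysed here.

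The measurements came from mouse neocortex at E11.5, in mid-gestation, on 10 two-colour arrays that each carried rostral RNA in one dye and caudal RNA in the other. The groups were C57, the inbred strain C57Bl\6, with 2 pools, and MF1, an outbred stock, with 3 pools (the design text gives 3 sets per strain, and a further C57 set is not analysed here), all without any genetic change or treatment named in the labels. For a pool, the most rostral and the most caudal of 3 parts of the neocortex were collected from 3 embryos per the labels (the series' design text gives at least 2), and the cDNA was amplified before labelling. Each pool was hybridised to 2 arrays with Cy3 and Cy5 exchanged, so that the pool, and not the array, is the replicate. Each value is a log2 ratio of the caudal to the rostral signal, so 0 is an equal signal, 1 a 2-fold higher caudal signal and a negative value a higher rostral signal. Cy5 was taken as the numerator, which is likely but not stated: under that reading the choroid plexus gene Ttr, made at the caudal and medial edge of the cortex, had a caudal over rostral ratio of 1.68 ± 0.18 (SE, n = 5 pools). With the other reading every sign below would turn.

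Guidance proteins tell growing axons and migrating cells where to go. Class 3 semaphorins are secreted and bind a neuropilin, which passes the signal on through a plexin, whereas most membrane-bound semaphorins bind plexins directly. Slits repel through Robo receptors, and netrin attracts through Dcc and repels where Unc5 receptors are present. In the cortex of this age the first neurons are being born and few long axons have formed.

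Within pools, the 2 arrays of opposite dye order barely resembled each other: over the tested probes their turned ratios correlated at 0.01 and -0.12 for C57 and at -0.08, -0.03 and -0.06 for MF1. Over the guidance probes alone the values were -0.001 and 0.47 for C57 and -0.22, 0.08 and 0.09 for MF1. These are correlations across probes of the same slide pair and carry no test. The MF1 arrays measured fewer probes, 13723 to 18288 each against 20191 to 20870 for C57. The median ratio of all probes moved between pools as well, from -0.20 in MF1 pool 1 to 0.37 in C57 pool 2. Only 2 and 3 pools per group limit the precision of every value. In bulk tissue, fewer cells of a type and less RNA per cell cannot be told apart.

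None of the 28 tested guidance probes differed between caudal and rostral neocortex after adjustment. With limma and Benjamini-Hochberg adjustment over all tested probes, the smallest adjusted p among them was 0.983 for the mean of both strains, 0.446 within MF1 and 0.999 for the difference between the strains. No probe of any gene passed in these 3 contrasts or within C57 (0% of 11855 in each), and the smallest adjusted p of all probes for the mean was 0.567. Without adjustment, 3 guidance probes had a p under 0.05 for the mean of both strains, and all 3 had the higher signal in rostral cortex: Sema3b, probe 1 of Sema3c and probe 2 of Dcc. Over all tested probes 1.11% had such a negative call, and 1.98% a positive one, of which the guidance genes had 0.

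The guidance probes, like the tested probes as a whole, mostly had mean ratios near 0. Their mean ratio was positive for 21 and negative for 7, against 69.4% positive over all tested probes, and the median was 0.16 against 0.09. After each array was centred on its own median, 19 were positive and 9 negative, with a median of 0.11 against 0.04 over all probes (59.2% of them positive). The mean ratio lay within 0.3 of 0 for 20 of the 28 (71.4%), compared with 78.7% of all tested probes. The median SE of a mean ratio was 0.19, and the median SD between pools was 0.39 against 0.41 over all probes. In C57 pool 2, 27 of the 28 probes had positive values, and probe 2 of Dcc was the only negative one, while in MF1 pool 1 only 5 of 27 measured probes were positive. The order of the pools by their guidance median (-0.22 in MF1 pool 1, -0.06 in C57 pool 1, 0.05 in MF1 pool 2, 0.16 in MF1 pool 3 and 0.42 in C57 pool 2) followed that of their medians over all probes.

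**Figure D1:**
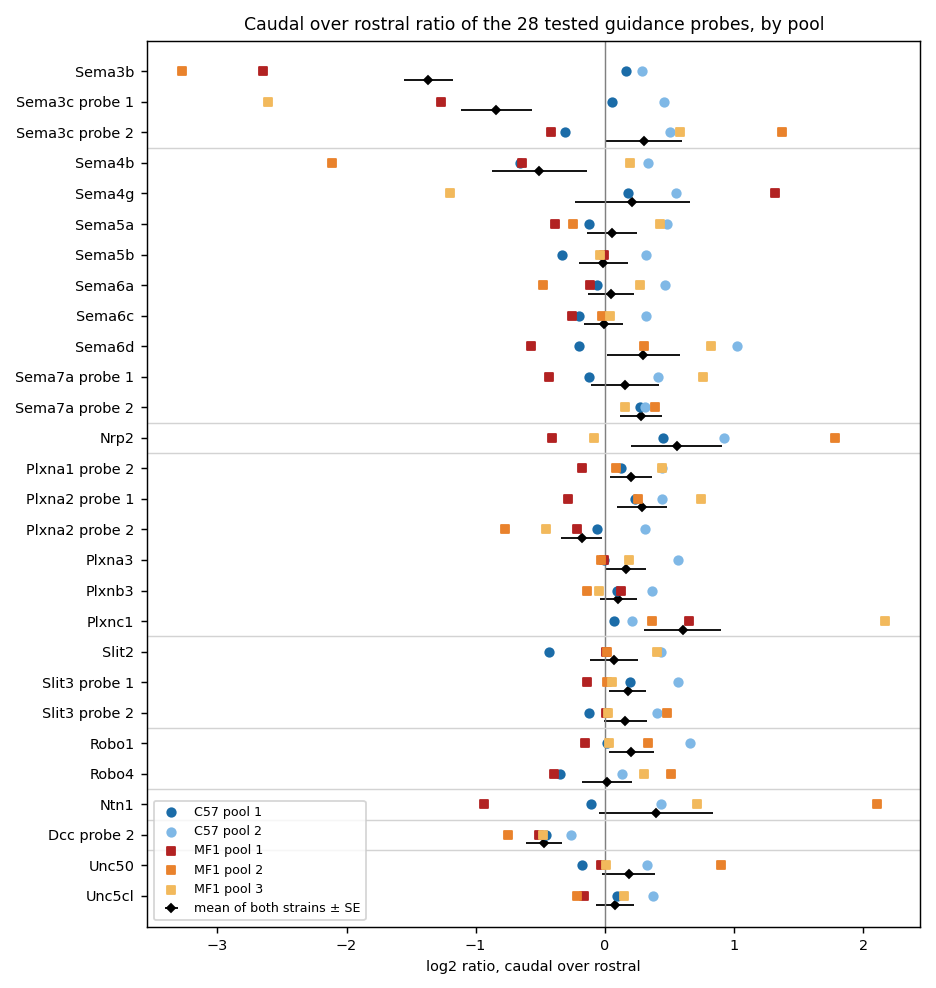
Log2 ratio of caudal over rostral signal (x axis) of the 28 tested guidance probes (y axis, grouped by family), with circles for the 2 C57 pools, squares for the 3 MF1 pools, and black diamonds for the mean of both strains ± SE. Most points lie within 1 of 0, the MF1 values of Sema3b and Sema3c probe 1 stand far to the left, and Dcc probe 2 has all 5 pools below 0.

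Dcc, the receptor through which netrin attracts axons, had a probe with the higher signal in rostral cortex on every array. This probe 2 (CG_Mm_EXT_3108950_1) gave -0.46 in C57 pool 1, -0.26 in C57 pool 2, and -0.51, -0.75 and -0.48 in MF1 pools 1 to 3. All 5 pools lay below 0. The MF1 pools lay below the C57 pools without overlap, though MF1 pool 3 and C57 pool 1 nearly met. Of all tested probes, 17.2% had strains without overlap. The mean of both strains was -0.47 ± 0.14 (SE, n = 5 pools), a 1.38-fold higher rostral signal, with an unadjusted limma p of 0.0168 and an adjusted p of 0.983. The same sign held on each single array. With caudal RNA in Cy5 the 5 arrays gave -0.33, -0.13, -0.48, -0.80 and -0.59, and with rostral RNA in Cy5 they gave -0.58, -0.38, -0.54, -0.70 and -0.37, each in the order of the pools above. The means over the 2 dye orders were -0.47 and -0.51, which lie closer together than 1 SE. Among the 8924 probes measured on all 10 arrays, 0.213% were negative on every one, and among guidance probes Dcc probe 2 was the only such probe. In all 5 pools 0.728% of those probes were negative, and probe 2 of Dcc was again the only guidance probe among the 22 measured in all 5. Within MF1 the ratio was -0.58 ± 0.18 (unadjusted limma p 0.0184), and the strains differed by -0.22 (unadjusted limma p 0.461). The unadjusted limma p for the mean rose to 0.0741 without C57 pool 1, 0.0599 without MF1 pool 2 and 0.0551 without MF1 pool 3, with ratios of -0.42, -0.43 and -0.49.

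The other Dcc probe did not show this ratio. Probe 1 (CG_Mm_3005212_1) gave -0.05 and 0.37 in C57 and, of the MF1 pools, 2.22 in pool 3, and MF1 pools 1 and 2 each had 1 measured array, at -0.12 and 1.42. It could not be tested, and the 2.22 rested on single arrays of 4.39 and 0.04. When the probes measured in each pool were averaged before the fit, the mean ratio was -0.11 ± 0.27. There MF1 pools 1 and 2 held probe 2 alone. The transcripts that each probe reads were not analysed here.

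**Figure D2:**
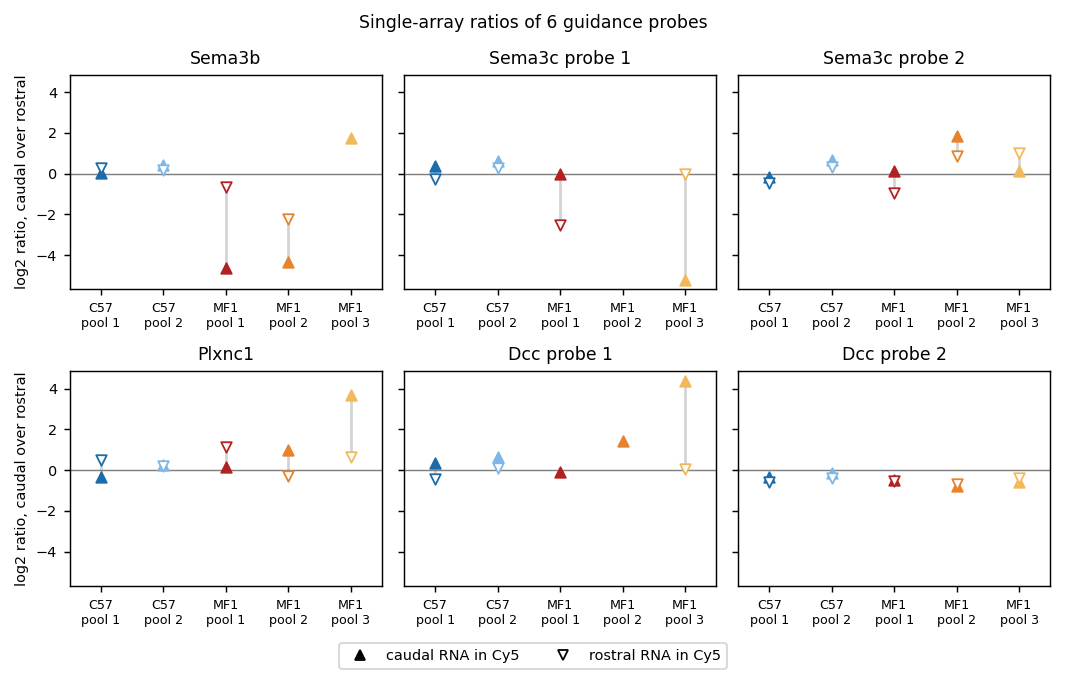
Log2 ratio of caudal over rostral signal (y axis) on single arrays for 6 guidance probes, by pool (x axis), with filled triangles for arrays with caudal RNA in Cy5, open triangles for arrays with rostral RNA in Cy5, and a grey line joining the 2 arrays of a pool. The 10 values of Dcc probe 2 run from -0.80 to -0.13, whereas the 2 arrays of a pool lie up to 5.21 apart for Sema3c probe 1.

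Of the secreted class 3 semaphorins, 6 genes had 7 probes, and 3 probes for Sema3b and Sema3c could be tested. Sema3b, a secreted ligand of the neuropilins, gave 0.16 and 0.29 in C57, against -2.64 and -3.27 in MF1 pools 1 and 2. The strains did not overlap, and in MF1 pool 3 only 1 array gave a value, 1.77 in the opposite direction, which the fit leaves out. The mean of both strains was -1.37 ± 0.19 (SE, n = 4 pools; unadjusted limma p 0.00105), the 11th smallest p of the 11855. Within MF1 it was -2.96 ± 0.27 (unadjusted limma p 0.000157, adjusted p 0.446), a 7.77-fold higher rostral signal, and the difference MF1 minus C57 was -3.18 ± 0.38 (unadjusted limma p 0.000537). The 2 arrays of a pool differed: -4.64 and -0.64 in pool 1, -4.34 and -2.20 in pool 2. When a pool value was taken from any measured array, the mean of both strains was -0.58 and the MF1 value -1.38. Within MF1 the adjusted limma p was 0.0454 without MF1 pool 1 and 0.0142 without MF1 pool 3, the only settings in which a guidance probe passed 0.05. All 4 MF1 values of Sema3b past 2-fold equal, within 0.0005, the log2 of a whole number over 1 to 5 or the inverse. These are called small whole-number ratios here for the small denominator alone. The other number had no limit, so that large ratios meet the rule more easily. How often values of like size meet it was not tested. The intensities of the single channels were not analysed here. Such values made up 21 of the 76 guidance values past 2-fold (27.6%), and 24.3% of those of all probes, and 9 of the 16 for class 3 semaphorins.

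Sema3c, which binds both neuropilins, had 2 probes that disagreed. Probe 1 (CG_Mm_EXT_3106902_1) gave 0.06 and 0.46 in C57, -1.27 in MF1 pool 1 and -2.60 in MF1 pool 3, and no value in MF1 pool 2. Its MF1 pools lay below its C57 pools, with a mean of both strains of -0.84 ± 0.28 (SE, n = 4 pools; unadjusted limma p 0.0315) and an MF1 value of -1.94 (unadjusted limma p 0.00512). MF1 minus C57 was -2.20 ± 0.55 (unadjusted limma p 0.0122). In MF1 pool 3 this rested on 1 array at -5.21 and 1 at 0, and in pool 1 on 1 array at -2.54 and 1 at 0. Probe 2 (CG_Mm_EXT_3111088_1), measured on all 10 arrays, gave -0.31 and 0.50 in C57, against -0.42, 1.37 and 0.58 in MF1. Its mean was 0.30 ± 0.30 (unadjusted limma p 0.348). Averaging the probes measured in each pool gave 0.01, where MF1 pool 2 held probe 2 alone, at 1.37. The other 4 genes, Sema3a, Sema3d, Sema3e and Sema3f, were measured on 5 to 8 arrays each and could not be tested. Where they gave a C57 pool value it ran from -1.52 (Sema3a, pool 1) to 0.88 (Sema3a, pool 2). Sema3e, the ligand that binds Plxnd1 without a neuropilin, was measured on 2 MF1 arrays, at 2.14 and 5.13.

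Membrane-bound semaphorins had 13 probes for 12 genes, of which 9 for 8 genes were tested: 6 had positive and 3 negative mean ratios, with a median of 0.06, and none had an unadjusted p under 0.05. Sema7a, which is anchored to the membrane by a lipid and binds Plxnc1, had the smallest p. Its probe 2 gave 0.28 and 0.31 in C57 and 0.39 and 0.16 in MF1 pools 2 and 3, with no value in MF1 pool 1. The 4 pools lay close together, at a mean of 0.28 ± 0.16 (unadjusted limma p 0.147), but the dye orders did not: the arrays with caudal RNA in Cy5 averaged -0.12 and those with rostral RNA in Cy5 0.65. Probe 1 of Sema7a gave a mean of 0.16 ± 0.27 with MF1 pools at -0.43 and 0.76. Sema4b had the lowest mean, -0.51 ± 0.37, of which MF1 pool 2 held -2.11 and MF1 pool 3 0.19. The class 5 and 6 genes Sema5a, Sema5b, Sema6a and Sema6c, whose products span the membrane, had mean ratios from -0.01 to 0.06 with SE of 0.15 to 0.19. Sema6d was at 0.30 ± 0.29. Sema4a, Sema4c, Sema4d and Sema6b were not tested, each having fewer than 2 MF1 pools with both dye orders.

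Of the receptors that take up the semaphorin signal, Nrp2 was tested and Nrp1 was not. Nrp2, the neuropilin that binds Sema3c and Sema3f, gave 0.45 and 0.92 in C57, against -0.41, 1.78 and -0.08 in MF1. The C57 pools were positive and the MF1 pools lay on both sides of 0, so that the mean of 0.56 ± 0.35 (unadjusted limma p 0.167) did not exceed the spread. The mean was 0.22 without MF1 pool 2, and also 0.22 with small whole-number ratios as missing. Nrp1, the receptor of Sema3a, gave 0.82 in C57 pool 2 and -0.003 and 0.12 in MF1 pools 1 and 3, and lacked a second C57 pool.

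Plexins had 9 probes for 7 genes, and 6 probes for 5 genes were tested, 5 with positive and 1 with negative mean ratios and a median of 0.18. Plxnc1, the plexin that binds Sema7a, gave 0.07 and 0.21 in C57, against 0.65, 0.36 and 2.17 in MF1. All 5 pools were positive, as in 4.16% of the 8924 probes measured in all pools, and among the 22 guidance probes so measured Plxnc1 was the only one. The mean was 0.60 ± 0.29 (SE, n = 5 pools; unadjusted limma p 0.0897), and within MF1 it was 1.06 ± 0.37, a 2.09-fold higher caudal signal (unadjusted limma p 0.031, adjusted p 0.995). This was the 1 guidance probe with a positive unadjusted call in MF1, where 1.55% of all probes had one. MF1 pool 3 set much of its size: without that pool the mean of both strains was 0.32, and single arrays of that pool gave 3.69 and 0.65. Of the 10 arrays, 8 were positive. The class A plexins, which work with the neuropilins, had ratios of 0.20 ± 0.16 for Plxna1 (probe 2), 0.17 ± 0.16 for Plxna3, and 0.29 ± 0.19 and -0.18 ± 0.16 for the 2 probes of Plxna2. Plxnb3 was at 0.11 ± 0.14. The 2 Plxna2 probes moved apart in MF1 pools 2 and 3, at 0.26 and 0.75 for probe 1 and at -0.78 and -0.46 for probe 2. Plxna1 probe 1, Plxnb2 and Plxnd1 were not tested, and Plxna1 probe 1 gave no ratio on any MF1 array.

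The slits are secreted ligands of the Robo receptors, and their 3 tested probes had positive means of 0.07 to 0.18. Slit3 probe 1 gave 0.20 and 0.56 in C57, against -0.14, 0.01 and 0.05 in MF1, and its C57 pools lay above its MF1 pools. The mean was 0.18 ± 0.14 (unadjusted limma p 0.262), and 0.09 without C57 pool 2 or 0.27 without C57 pool 1. Its probe 2 stood at 0.16 ± 0.17 and Slit2 at 0.07 ± 0.19. Slit1 gave 0.46 in C57 pool 2 and -0.60, 0.08 and 1.31 in MF1, and was not tested since it had 1 C57 pool. Among receptors, Robo1 gave 0.02 and 0.66 in C57, against -0.15, 0.34 and 0.04 in MF1, with a mean of 0.21 ± 0.17 (unadjusted limma p 0.276) that was 0.05 without C57 pool 2 and 0.37 without C57 pool 1. Robo4, a Robo of blood vessels, was at 0.02 ± 0.20, beside endothelial markers whose 7 tested probes had a median of 0.13 (4 positive). Robo2 was not tested. Its pool values were -1.20 in C57 pool 1 and -1.66, -0.45 and 0.61 in MF1, and 6 of its 9 array values were past 2-fold.

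Of the 3 netrins, Ntn1 was measured on all 10 arrays and the others were not tested. Ntn1, the secreted ligand of Dcc, gave -0.11 and 0.44 in C57, against -0.93, 2.11 and 0.71 in MF1, on both sides of 0 in both strains, and its mean was 0.40 ± 0.44 (unadjusted limma p 0.402). It was 0.03 without MF1 pool 2 and 0.79 without MF1 pool 1. Ntn3 gave no MF1 ratio at all and stood at -0.04 and 0.57 in C57. Ntn4, a netrin related to laminin chains, gave -0.29 and 0.40 in C57 and 1.09 in MF1 pool 3. Of the netrin receptors other than Dcc, Unc5b and Unc5c were not tested: Unc5b stood at -0.10 and 0.39 in C57, and Unc5c at -0.78 and 0.53 in MF1 pools 1 and 3. Unc50, a membrane protein named after another worm gene and no netrin receptor, fitted the naming rule and had a mean of 0.19 ± 0.20. Unc5cl, a protein resembling Unc5c, stood at 0.08 ± 0.15.

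Of the 19 probes without a test, 12 lacked MF1 pools, 4 lacked a C57 pool and 3 lacked both, and 9 had no MF1 pool with both dye orders. Counts of tested guidance probes therefore leave out many members that were poorly measured in MF1, and say nothing of them.

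**Figure D3:**
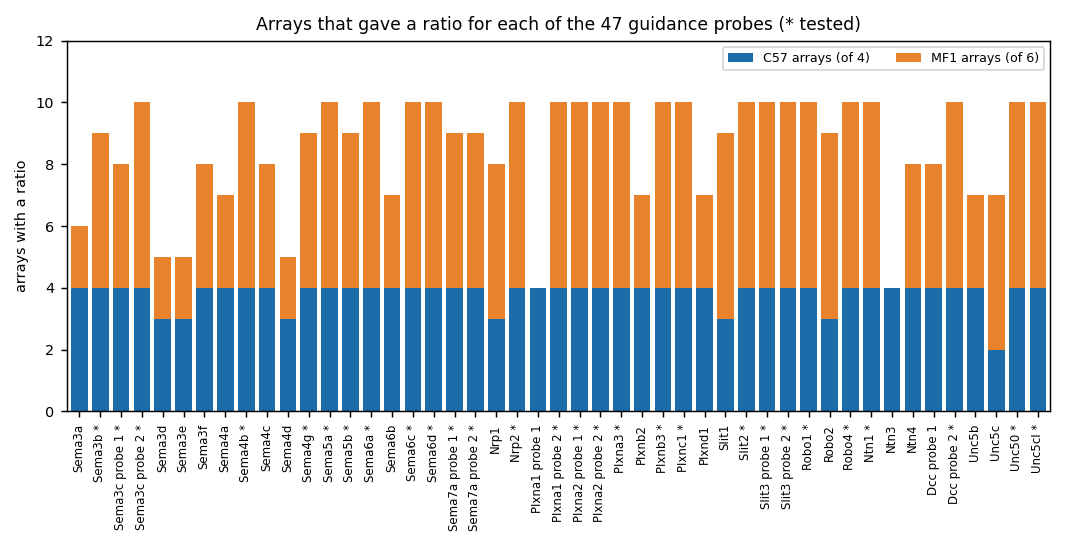
Number of arrays with a ratio (y axis) for each of the 47 guidance probes (x axis, an asterisk marks the tested ones), stacked as C57 arrays (blue, at most 4) and MF1 arrays (orange, at most 6). Most probes reach all 4 C57 arrays, and the missing ratios are mainly in MF1, with 0 MF1 arrays for Plxna1 probe 1 and Ntn3.

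Between the strains, C57 had 0 guidance probes with an unadjusted p under 0.05 in either direction (1.44% of all probes were called positive and 0.363% negative). MF1 had 1 positive call and 3 negative ones, Sema3b, Sema3c probe 1 and Dcc probe 2, where 2.4% of all probes had a negative call. The difference MF1 minus C57 was tested itself: its unadjusted p was under 0.05 for Sema3b and Sema3c probe 1, both negative (1.33% of all probes) and neither below 0.05 after adjustment, and no guidance probe had a positive call (0.548%). The pools of the 2 strains did not overlap for 6 of the 28 probes (Sema3b, Sema3c probe 1, Plxna2 probe 2, Plxnc1, Slit3 probe 1 and Dcc probe 2), against 17.2% of all tested probes. Strain medians over the guidance probes were 0.19 in C57 and 0.07 in MF1, compared with 0.13 and 0.03 over all probes.

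**Figure D4:**
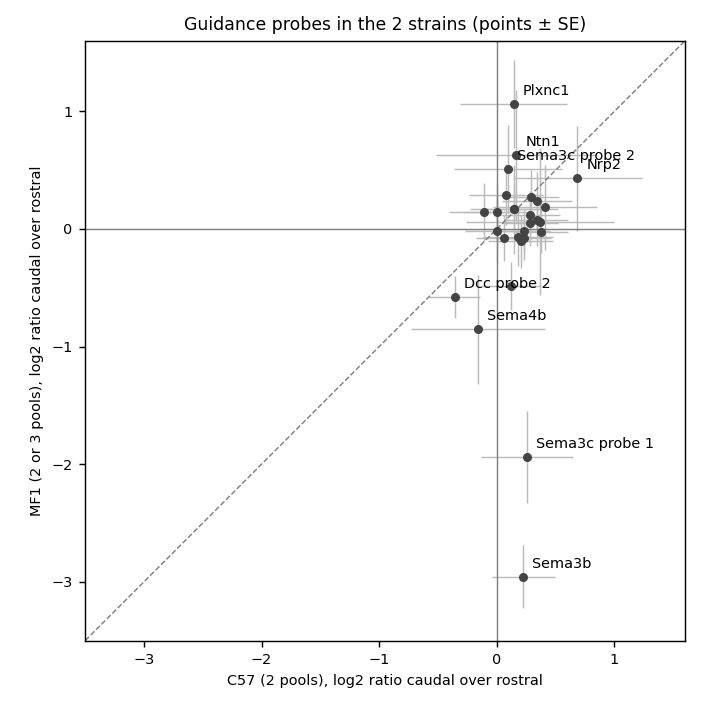
Log2 ratio of caudal over rostral signal of the 28 tested guidance probes in C57 (x axis, 2 pools) and MF1 (y axis, 2 or 3 pools), each point with its SE, and a dashed line of equal values. Sema3b (0.23 in C57, -2.96 in MF1) and Sema3c probe 1 (0.26, -1.94) lie far below the line, and Dcc probe 2 (-0.36, -0.58) is the point with negative values closest to it among the labelled ones.

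Genes that act with these pathways were listed separately. Of 34 tested probes for 32 partner genes, 24 had positive and 10 negative mean ratios, with a median of 0.07 against 0.09 over all tested probes. With an unadjusted p under 0.05, 1 was positive and 0 negative. Over all tested probes, 69.4% had a positive mean ratio, 1.98% a positive call and 1.11% a negative one. The semaphorin partners (12 probes) had a median of 0.10, the slit and Robo partners (13 probes) 0.09 and the netrin partners (9 probes) 0.06. The 1 called gene was Dpysl3, of the family of collapsin response mediators, at 0.47 and 0.68 in C57, against -0.01, 0.39 and 0.54 in MF1, with a mean of 0.44 ± 0.16 (unadjusted limma p 0.0315, adjusted p 0.983). Cdc42, a small GTPase used downstream of Robo, had a probe at 0.45 ± 0.20 (unadjusted limma p 0.0738) and another at 0.21 ± 0.14. Maged1, an intracellular partner of Unc5 receptors, was at 0.79 ± 0.33 (unadjusted limma p 0.054).

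Markers of the cells that such a dissection can hold were read in the same way, and none passed after adjustment. Over all tested probes, 69.4% had a positive mean ratio, 1.98% a positive unadjusted p under 0.05 and 1.11% a negative one. Of 9 tested probes for ventral telencephalon, 6 had negative mean ratios (median -0.24), and the list's C57 pools had medians of -0.32 and 0.34 and its MF1 pools of -0.50, -0.41 and 0.24, on ratios that were not centred. Of that list 2 probes had an unadjusted p under 0.05, both negative. Dlx1 was below 0 in all 5 pools, at -0.47 and -0.09 in C57, against -0.84, -2.18 and -2.05 in MF1 (mean -0.99, unadjusted limma p 0.00756). Dlx2 had a mean of -0.76 ± 0.15 (unadjusted limma p 0.00299), with 0.06 for C57 and -1.58 for MF1. The 3 probes of this list with positive means were Dlx6 at 0.22, Gsx2 at 0.16 and a Gad2 probe at 0.04. All 5 probes of surface ectoderm were negative (median -0.33), with pool medians of -0.43 and 0.18 for C57, against -0.40, -0.86 and -1.55 for MF1, beside the negative MF1 values of Sema3b and Sema3c probe 1. Here too 2 probes had an unadjusted p under 0.05, both negative. Krt18 had a mean of -1.45 (unadjusted limma p 0.000885) and an MF1 minus C57 difference of -2.32 (unadjusted limma p 0.00228). Trp63 had a mean of -0.80 (unadjusted limma p 0.00213) and a difference of -0.90 (unadjusted limma p 0.0265), while Krt5 and Krt19 stood at 0.08 and 0.03 in MF1. Neuronal markers had 8 of 10 positive (median 0.18), radial progenitors 5 of 10 (-0.06), Cajal-Retzius neurons 4 of 5 (0.05), meninges and mesenchyme 4 of 7 (0.01), blood 6 of 6 (0.41), cortical hem and choroid plexus 6 of 7 (0.45), and diencephalon and eye 4 of 7 (0.09). Positive unadjusted calls numbered 1 each for neurons, Cajal-Retzius neurons and endothelium, and 2 each for blood and for cortical hem and choroid plexus. The 1 negative call of radial progenitors was a Slc1a3 probe at -0.73 and -0.38 in C57, against -0.50, -0.82 and -0.26 in MF1. Its mean was -0.54 (unadjusted limma p 0.0161), and another Slc1a3 probe had a mean of -0.15 (unadjusted limma p 0.759). Like Dcc probe 2, that first probe, Dlx1 and Trp63 were below 0 in all 5 pools. The part of these cells in the ratios of the guidance genes was not tested, and ratios give no level at which a marker could be called absent.

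Beyond their names, the guidance genes differed widely in the base composition of their promoters. RefSeq promoters (GRCm38.p6, the 250 bases before a transcript start) were analysed for 34 of the 41 genes and numbered 47, since some genes have several starts. They held 0 to 39 CG dinucleotides, with a median of 13 against 6 over the 32851 promoters of the table, and 70.2% of them were above that overall median, compared with 46.3% of all. Member promoters on a single chromosome were left out of these counts, whereas the figures over all promoters keep that chromosome. Dcc and Sema3b are among the member genes without a promoter here. A pair of class 3 semaphorins on chromosome 5 with 15 protein-coding genes between them show the width within one family, with CG in capitals, both on the plus strand. Sema3c (chr5:17574566-17574815) had 39, a number that 1.56% of all promoters reached, and Sema3e (chr5:14025026-14025275) had 7, a number that 46.3% of all promoters reached.
Sema3c: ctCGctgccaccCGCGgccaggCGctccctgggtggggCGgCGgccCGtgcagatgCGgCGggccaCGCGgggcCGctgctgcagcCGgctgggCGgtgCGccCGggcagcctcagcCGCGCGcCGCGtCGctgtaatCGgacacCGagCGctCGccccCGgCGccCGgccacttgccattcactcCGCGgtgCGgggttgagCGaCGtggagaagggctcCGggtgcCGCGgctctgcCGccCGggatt
Sema3e: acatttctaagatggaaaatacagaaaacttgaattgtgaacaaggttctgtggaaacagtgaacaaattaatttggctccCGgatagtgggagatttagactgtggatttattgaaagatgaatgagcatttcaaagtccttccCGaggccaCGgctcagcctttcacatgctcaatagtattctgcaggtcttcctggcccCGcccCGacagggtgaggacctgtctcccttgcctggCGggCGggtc
CG reads the same on both strands. In the same annotation, Robo1 and Robo2 are neighbours with 0 protein-coding genes between them, as are Sema3d and Sema3a, while Sema3b and Sema3f have 3 between them. None of these pairs had both members tested, so their regional ratios could not be compared by a test.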

How the data were processed

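RNA of rostral and caudal neocortex from 5 pools was hybridised to 10 two-colour arrays. The authors' deposited table holds log2 ratios, a unit read from the values. Background correction, normalization and scanner: not given in the sources used here. Trizol RNA was turned into cDNA and amplified, per the labels' protocols.

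Values at the ceiling of 16.61 were treated as missing and 232 control spots left out. Ratios were turned to caudal over rostral by the dye labels, not centred, and the 2 arrays of a pool averaged, both being required. Probes measured so in at least 2 pools of each strain were tested in R 4.3.3 with limma 3.58.1 (a coefficient per strain, lmFit and eBayes, two-sided, Benjamini-Hochberg over all tested probes, threshold 0.05). A pool without a value was left out of that probe's fit. P values measure the spread between pools. An exact sign-change test of 1 probe over 5 pools could reach 0.0625 at the lowest (two-sided).

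Full pool values are given for member probes with an unadjusted p under 0.05 in any contrast and for the probe of smallest p per family, with others by range or value. The members and lists were chosen with earlier results of these data known. Gene names come from the platform annotation and were not taken from probes with several symbols. The procedure was tested on simulated data. Alternatives were centring, scaling, probe filters, single arrays with a dye term, the ceiling, robust eBayes, one dye order, averaged probes, a replicate block and leaving out pools. Treating small whole-number ratios as missing was chosen after seeing the data.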

Additional observations from a re-analysis of the deposited data

Results flagged for a closer look

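Sema3b had C57 pools at 0.16 and 0.29 and MF1 pools 1 and 2 at -2.64 and -3.27, so that MF1 minus C57 was -3.18 ± 0.38 with an unadjusted limma p of 0.000537. After adjustment the limma p was 0.999, so the difference did not pass. The single array of MF1 pool 3, at 1.77, is not in that value. With any measured array the difference was -1.61 (unadjusted limma p 0.37), and on 10 single arrays with a dye term -1.89 (unadjusted limma p 0.24).

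Probe 1 of Sema3c had an MF1 minus C57 value of -2.20 ± 0.55 (unadjusted limma p 0.0122), which did not pass after adjustment either (limma p 0.999). On 10 single arrays with a dye term the unadjusted limma p was 0.211, and each MF1 pool value averages 1 array at 0 with 1 far from it. Probe 2 of the gene had a difference of 0.42 (unadjusted limma p 0.512).

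For Plxnc1, the value of MF1 pool 3, 2.17, stood apart from the other 4 pools, with a gap to the nearest of them of 0.724 of the whole range, above Dixon's critical value for 5 samples. Chance gives such a gap in about 1 in 20 groups.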

How the results depend on the processing

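Of the values of the named probes under other settings, 227 kept their direction and their side of the threshold of adjusted p 0.05, 2 turned and 2 passed the threshold. The smallest adjusted limma p of these values in the main fit was 0.446, so that keeping this side says little about stability. The Sema3b mean, counted as kept, was -1.37 in the main fit and -0.58 with any measured array. Sema3c probe 1 turned to 0.008 when the probes measured in each pool were averaged, with probe 2 alone in MF1 pool 2. Sema7a probe 2 turned to -0.098 when arrays with Cy5-labelled caudal RNA were used alone. Sema3b passed the adjusted threshold within MF1 without MF1 pool 1 (-3.27, adjusted limma p 0.0454) and without MF1 pool 3 (-2.96, adjusted limma p 0.0142) to which it contributed no value. Without MF1 pool 1, its lone MF1 pool is assumed to vary like the other groups. The count of guidance probes past adjusted p 0.05 in any contrast, 0, ran from 0 to 1 when pools were left out in turn, and was 0 at a threshold of 0.1 for the mean. The count with an unadjusted p under 0.05 for the mean, 3, was 1 (Dcc) with all 5 pools measured, on 10 single arrays with a dye term and on these centred, and with small whole-number ratios as missing. It was 0 with Cy5-labelled caudal RNA alone, and 1 to 6 when pools were left out. It was 1 without C57 pool 1 (Sema3b) and 6 without MF1 pool 1, where Nrp2, Ntn1 and Plxnc1 joined. Sema3c probe 1 was not among them without C57 pool 1, C57 pool 2 or MF1 pool 3. With any measured array the 3 were Dcc, Sema3e and Sema4c, and with Cy5-labelled rostral RNA alone Dcc, Plxnd1 and Sema7a. Over all probes, the count past adjusted p 0.05 for the mean, 0, was 1 with centred and scaled arrays, 1 on 10 single arrays and 8 on these centred, none of them a guidance probe. With the pool number as a replicate block, the count for MF1 minus C57 stayed at 0. Among the 22 guidance probes in that fit, 4 genes had an unadjusted p under 0.05 for the mean (Dcc, Plxna2, Plxnc1 and Sema6d). These were counted by gene, and which of the 2 Plxna2 probes it was is not given. Same-numbered pools correlated at 0.13 and -0.02 in their deviations. With only 2 C57 pools these 2 values are not independent, and even the 2 arrays of a pool barely correlated. They therefore cannot decide whether the numbers pair pools across the strains. Sema3b and Sema3c probe 1, not measured in 5 pools, had no value in that fit. The cause of these changes was not tested beyond what each setting leaves out.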
